A study of Homo sapiens with 6 samples.

Results

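The cytochrome P450 genes outside family 1 were followed in Hep3B cells, an established human hepatocellular carcinoma (HCC) cell line. A gene was taken by its symbol alone, when the symbol was CYP followed by a number, letters and a number and did not begin with CYP1A or CYP1B. This gave 52 of the 23228 genes in the tables, spread over 15 chromosomes, with 12 on chromosome 19 and 8 on chromosome 10. The 3 CYP1 genes, 8 pseudogene or antisense rows, and TBXAS1 and PTGIS, which encode P450 enzymes under other names, were not members.

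P450 enzymes are haem proteins that insert an oxygen atom into a substrate. Those of the endoplasmic reticulum draw electrons from the reductase POR, and those of mitochondria from the ferredoxin FDX1 and its reductase FDXR. In the liver they oxidize drugs and other foreign compounds, build and break down sterols, bile acids and steroid hormones, and inactivate vitamins A and D. Many are induced through nuclear receptors that bind their substrates.

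RNA was sequenced in 3 control libraries, from cells given a non-targeting lentiviral shRNA, and in 3 libraries labelled PELP1-KD, from cells given shRNA lentivirus against PELP1, selected with puromycin and pooled over clones. The titles of the latter name the first PELP1 shRNA, while their protocol text names both that the study used. PELP1 is the targeted gene. The labels do not say that the replicates were separate cultures, so the p values measure the spread between these libraries, which may be technical.

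Depth ran from 26758363 to 34456542 reads assigned to genes per library. The reads of PELP1 numbered 5338, 5127 and 5348 in control and 4318, 4135 and 4846 in PELP1-KD, or 94.5% of the control level after normalization (log2 fold change −0.08 with a standard error, SE, of 0.04, and an adjusted p of 0.101 from edgeR). Blocking on the replicate number gave PELP1 an adjusted p of 0.0106 at the same log2 fold change, and leaving out PELP1-KD replicate 3 gave −0.10 (adjusted p = 0.018). The exact two-sided permutation test of PELP1 gave p = 0.1, the smallest that 3 against 3 allow. The targeted RNA was thus near its control level, and each direction below is that of the labels. The paper reports less PELP1 protein on Western blots of its PELP1-KD Hep3B cells, while the values here are of RNA. Reads were found for 9 of 9 hepatocyte markers, ALB among them. Their summed level ran from 871004 to 884806 normalized reads in control and from 768717 to 784407 in PELP1-KD. Of these markers 6 were called lower, ALB (−0.61) among them, and 3 higher, namely AFP (0.62), FGB (0.17) and HNF4A (0.23). Of other markers fixed for comparison, the endothelial genes CDH5, KDR and TEK were at 0 reads in all libraries. The summed level of 5 cholangiocyte markers ran from 21280 to 22168 in control and from 32651 to 34584 in PELP1-KD. That of 6 fibroblast markers ran from 1318 to 1356 and from 1958 to 2001, of 6 leukocyte markers from 5650 to 6007 and from 3443 to 3517, and of 5 endothelial markers from 63.0 to 72.8 and from 60.7 to 67.6. Single markers ran against their sums. LYZ fell to 34.2% and CD14 to 50.6% of control while CD68 rose to 140%, and PDGFRB fell to 22.7% while COL1A1, COL1A2 and LUM rose. The part of these shifts in the P450 values was not tested.

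Of the 52 P450 genes, reads were found for 46, and 27 passed the edgeR filter on low counts. The RNA of most members was therefore scarce in Hep3B cells. The members together took 605, 608 and 580 of every 1000000 reads in control and 787, 779 and 732 in PELP1-KD. CYP51A1 alone took between 63.4% and 66.2% of these reads, and CYP27A1 between 8.91% and 12.2%. Without these 2 genes, the members summed to between 4444 and 4551 normalized reads in control and between 6066 and 6127 in PELP1-KD. The groups did not overlap. The largest rises here were in CYP2S1 (65.4 to 594), CYP26A1 (144 to 538), CYP2B6 (103 to 442) and CYP4F12 (588 to 910). CYP26B1 fell from 725 to 357 normalized reads, and 5 members were called lower in all. In such bulk RNA, more cells that express a gene and more RNA per cell cannot be told apart.

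Of the 27 tested members, 12 were higher and 5 lower in PELP1-KD at an adjusted p below 0.05 (edgeR's quasi-likelihood test, Benjamini-Hochberg adjustment over the 14537 genes tested). Over all tested genes, 26.8% were called higher, 26.8% lower and 53.6% in either direction. For the members the shares were 44.4%, 18.5% and 63.0%. With a 2-fold change as well, 3 members were higher (CYP2S1, CYP2B6 and CYP26A1) and 3 lower (CYP24A1, CYP7B1 and CYP26B1). This is 22.2% of those tested, where all genes gave 7.65%, of which 2.85% were higher and 4.79% lower. The groups did not overlap for 18 of the 27 members (66.7%), beside 58.8% of all genes tested. The median log2 fold change was 0.36 over the tested members and 0.00 over all genes. Without the filter, and with DESeq2, where more scarce members enter, the members' median was 0.171. Because members with few reads pass the filter only where one group is high enough, these counts describe the tested members and not all 52.

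**Figure D1:**
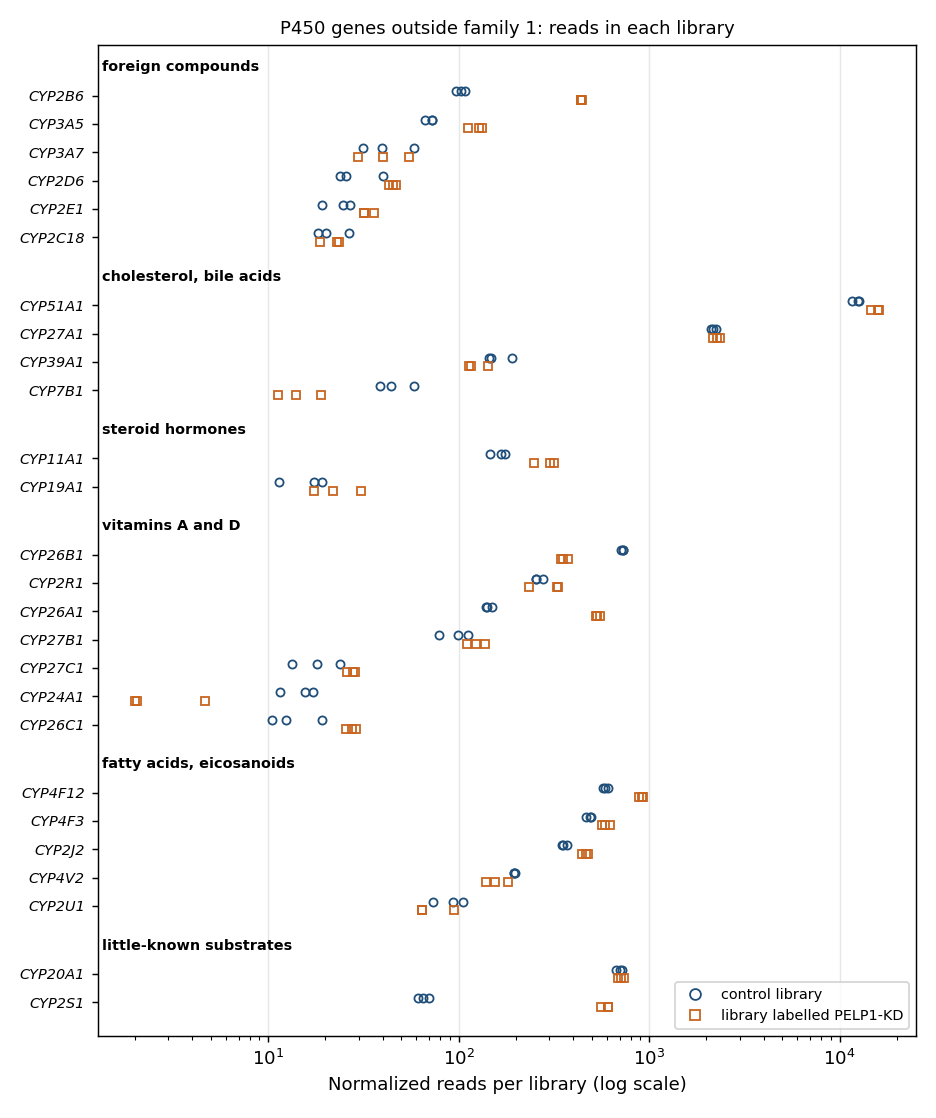
Normalized reads on a log scale for 26 of the 27 tested P450 genes, grouped by main known substrate, with 1 circle per control library and 1 square per library labelled PELP1-KD. The squares lie far to the right of the circles for CYP2S1, CYP2B6 and CYP26A1 and far to the left for CYP24A1, CYP7B1 and CYP26B1.

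Levels can be compared between genes only per length, as reads per 1000 exon bases and 1000000 reads (RPKM). On this scale CYP51A1 led with 118 ± 4.90 RPKM in control and 151 ± 8.0 in PELP1-KD (SD, n = 3 each here and below). CYP27A1 followed with 30.2 ± 0.911 and 31.5 ± 1.22, and CYP4F12 with 10.5 ± 0.330 and 16.2 ± 0.415. CYP2J2 (6.14 ± 0.207 in control) stood above CYP2R1 (5.17 ± 0.263), while CYP2R1, CYP26B1 (5.09 ± 0.0728) and CYP4F3 (4.93 ± 0.149) lay within the spread of each other in control. In PELP1-KD this order changed below the fourth place. CYP2J2 had 7.92 ± 0.288 RPKM, CYP2S1 7.21 ± 0.352 and CYP26A1 6.90 ± 0.167, where the last pair lay within their spread, and CYP26B1 had 2.51 ± 0.112. In either group, 15 of the 52 members reached a mean of 1 RPKM.

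**Figure D2:**
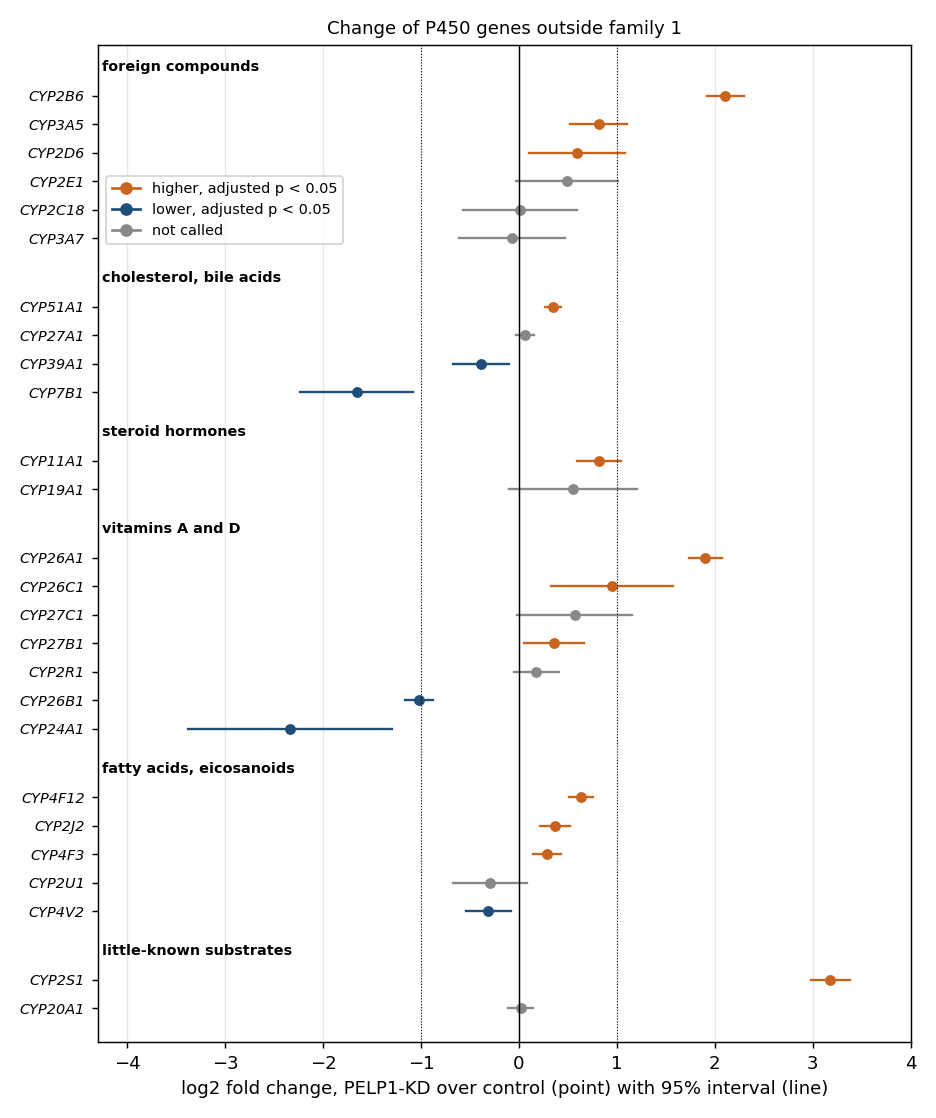
Log2 fold change of PELP1-KD over control for 26 of the 27 tested P450 genes, as a point with its 95% interval, coloured by call at an adjusted p of 0.05, with dotted lines at a 2-fold change. CYP2S1 (3.18), CYP2B6 (2.10) and CYP26A1 (1.90) lie beyond the right line, and CYP24A1 (−2.34) and CYP7B1 (−1.65) beyond the left one, while CYP26B1 (−1.02) sits on it.

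Enzymes of foreign compounds were mostly scarce. Of 14 members of this class, 7 were tested, of which 3 were called higher and 0 lower at an adjusted p below 0.05, and their median log2 fold change was 0.49. The share called was 42.9%, below the 53.6% of all genes tested. CYP2B6, which oxidizes drugs such as bupropion and efavirenz, is encoded on the plus strand of chromosome 19 (hg19, 41497204 to 41524301). It had 118, 107 and 102 reads in control and 434, 378 and 442 in PELP1-KD. Every PELP1-KD value lay above every control value. CYP2B6 rose from 103 ± 5.44 to 442 ± 1.77 normalized reads, a log2 fold change of 2.10 (SE 0.09, adjusted p = 1.65e-13).

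CYP3A5, a drug oxidase of the CYP3A cluster on chromosome 7 (99245813 to 99277621), had 79, 76 and 70 reads in control and 130, 96 and 128 in PELP1-KD. The groups did not overlap, and the log2 fold change was 0.82 (SE 0.14, adjusted p = 5.63e-05). Its neighbour 25038 bases away, CYP3A7, the fetal liver form, had 43, 61 and 33 reads in control and 29, 47 and 40 in PELP1-KD, which overlapped (log2 fold change −0.07, 95% interval −0.61 to 0.47). CYP3A4, the leading drug-metabolizing P450 of adult liver, had 1, 2 and 1 reads in control and 0, 4 and 6 in PELP1-KD, and CYP3A43 had at most 3 reads in a library. CYP2D6, which oxidizes many drugs of the nervous system, was called higher with a log2 fold change of 0.59 (SE 0.23, adjusted p = 0.0392), on 28, 42 and 25 reads in control and 42, 39 and 47 in PELP1-KD. That call lay near the threshold. It was lost with any library but control replicate 2 left out, at log2 fold changes of 0.49 and 0.46 without control replicate 1 or 3 (adjusted p = 0.135 and 0.149), and of 0.63, 0.59 and 0.56 without PELP1-KD replicate 1, 2 or 3 (0.0559, 0.0815 and 0.0779). DESeq2 gave CYP2D6 0.59 with an adjusted p of 0.135.

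Other tested members of this class were not called. CYP2E1, which oxidizes ethanol, had 27, 28 and 20 reads in control and 31, 31 and 32 in PELP1-KD, without overlap (log2 fold change 0.49, 95% interval −0.02 to 1.01, adjusted p = 0.101). CYP2C18 had 22, 19 and 28 reads and 23, 16 and 23 (0.01, interval −0.57 to 0.59).

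CYP2S1 had the largest log2 fold change of the tested members in either direction. It is an enzyme of epithelial tissues with little-known substrates, known to be inducible by dioxin, and lies on chromosome 19 from 41699115 to 41713444 on the plus strand. It had 71, 64 and 73 reads in control and 547, 523 and 611 in PELP1-KD. The lowest PELP1-KD library thus held several times the reads of the highest control library. CYP2S1 rose from 65.4 ± 4.15 to 594 ± 29.0 normalized reads, a log2 fold change of 3.18 (SE 0.10, adjusted p = 6.79e-16). CYP2B6 and CYP2S1 stand in 1 run of CYP2 genes on chromosome 19, together with CYP2A6, CYP2A7, CYP2A13 and CYP2F1. CYP2A13 and CYP2F1 lie between them and had at most 1 and 0 reads in a library. Of the dioxin-inducible CYP1 genes that the symbol rule leaves out, CYP1A1 and CYP1B1 were also higher, with log2 fold changes of 2.05 and 3.38. The remaining CYP1 gene, CYP1A2, had 3, 2 and 6 reads in control and 4, 1 and 2 in PELP1-KD. These overlapped, and CYP1A2 was too scarce to be tested. The other tested member with little-known substrates, CYP20A1, had 702 ± 26.5 and 711 ± 23.5 normalized reads (log2 fold change 0.02, interval −0.11 to 0.14).

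Genes of vitamin A and D metabolism changed in both directions. All 7 members of this class were tested, with 3 called higher and 2 lower. This was 71.4% of those tested, beside 53.6% of all genes tested. The CYP26 enzymes clear retinoic acid, the active form of vitamin A, by oxidation. CYP26A1, on chromosome 10 of hg19 from 94833232 to 94837641, had 152, 148 and 157 reads in control and 521, 452 and 553 in PELP1-KD. It rose from 144 ± 5.44 to 538 ± 13.0 normalized reads, a log2 fold change of 1.90 (SE 0.08, adjusted p = 1.58e-13). CYP26B1, on chromosome 2 from 72356367 to 72374963, moved the other way. It had 778, 765 and 763 reads in control and 335, 304 and 375 in PELP1-KD, without overlap, and fell to 49.3% of control (log2 fold change −1.02, SE 0.07, adjusted p = 1.33e-10).

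CYP26C1, which starts the pair on chromosome 10 and ends 4777 bases before CYP26A1, was rare, with 21, 13 and 11 reads in control and 27, 22 and 29 in PELP1-KD. The groups did not overlap, and the log2 fold change was 0.95 (SE 0.30, adjusted p = 0.0111). Without control replicate 3 it was 0.79 and no longer called (adjusted p = 0.0560), and DESeq2 gave CYP26C1 0.96 with an adjusted p of 0.0618. In control the 3 CYP26 genes summed mostly from CYP26B1, at 5.09 RPKM beside 1.84 for CYP26A1 and 0.285 for CYP26C1, and in PELP1-KD mostly from CYP26A1, at 6.90 RPKM beside 2.51 and 0.556. CYP27C1, a retinoid desaturase, had 26, 14 and 19 reads and 28, 24 and 26 (log2 fold change 0.57, interval −0.02 to 1.15, adjusted p = 0.0951).

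CYP24A1, the enzyme that inactivates vitamin D and a classical target of the vitamin D receptor, lies on chromosome 20 from 52769988 to 52790516. It had 17, 12 and 18 reads in control and 2, 4 and 2 in PELP1-KD, a log2 fold change of −2.34 (SE 0.50, adjusted p = 0.000563). The groups did not overlap, but the counts are small and the 95% interval ran from −3.38 to −1.29. CYP27B1, which makes the active hormone, had 122, 82 and 104 reads and 121, 95 and 137, which overlapped after normalization, and was called higher by a narrow margin (log2 fold change 0.36, SE 0.15, adjusted p = 0.0450). It was not called at 0.23 and 0.38 without control replicate 2 or 3 (adjusted p = 0.217 and 0.0681), at 0.36 and 0.28 without PELP1-KD replicate 1 or 3 (0.0724 and 0.139), or by DESeq2 (0.36, adjusted p = 0.134). CYP2R1, the vitamin D 25-hydroxylase, had 278, 267 and 292 reads and 325, 283 and 234. PELP1-KD replicate 3 was lowest of all after normalization, and the log2 fold change was 0.18 (adjusted p = 0.186). Without that library CYP2R1 was called higher (0.33, adjusted p = 0.00234).

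**Figure D3:**
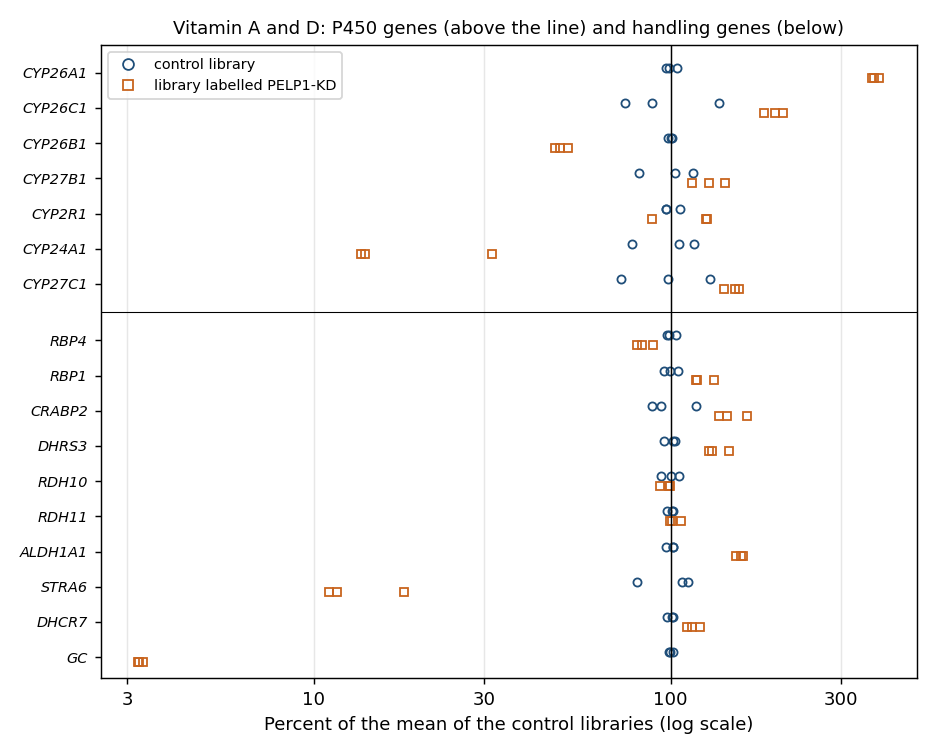
Normalized reads of each library as a percent of the control mean (log scale), for the 7 vitamin A and D P450 genes above the line and the 10 tested handling genes below it, with circles for control and squares for PELP1-KD. CYP26A1 lies near 374% and CYP26B1 near 49.3% of control, and STRA6 and GC near 13.5% and 3.25%.

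Genes that carry, make or sense these vitamins also went both ways. Of 14 genes fixed for retinoid and vitamin D handling, 10 were tested, with 4 called higher and 3 lower and a median of 0.12. Called genes made up 70.0% of those tested, beside 53.6% of all genes tested. A 2-fold change was called for 2 of the 10, STRA6 and GC, beside 7.65% of all genes tested. STRA6, the membrane receptor for retinol-binding protein, had 124, 89 and 124 reads in control and 12, 10 and 19 in PELP1-KD (log2 fold change −2.86, SE 0.23, adjusted p = 3.00e-09). GC, the vitamin D carrier of plasma, had 23344, 22861 and 22655 reads and 700, 595 and 703 (−4.94, SE 0.04, adjusted p = 3.86e-25). ALDH1A1, which makes retinoic acid from retinal, was higher (0.65, adjusted p = 4.68e-13). The receptor genes VDR, RARA, RARB and RARG were not in this list but among the regulators of P450 genes below. The vitamin D receptor gene VDR had 247, 237 and 243 reads and 411, 361 and 408 (log2 fold change 0.87, SE 0.08, adjusted p = 1.26e-08), while its target CYP24A1 was lower. For the retinoic acid receptors RARA and RARB the log2 fold changes were 0.01 and 0.00, and for RARG 0.24, and none was called.

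Promoter sequences are shown for the 4 members with at least 2-fold changes and more than 100 normalized reads in the higher group for which the RefSeq table (GRCh38.p14) held an entry. They let the oppositely moving CYP26 pair and the 2 strongest rises be compared. Each runs 5′ to 3′ over the 250 bases before the annotated start. Capitals mark matches on either strand to 6 motifs, namely the TATA box (TATAAA), the CCAAT box, the GC box (GGGCGG), the core bound by the dioxin receptor (GCGTG), and the nuclear receptor half-sites AGGTCA and its variant AGTTCA. CYP26A1 has 2 annotated starts, and the second is shown. It lies at chr10:93073643-93073892 on the plus strand, CYP26B1 at chr2:72147863-72148112 on the minus strand, CYP2B6 at chr19:40991032-40991281 and CYP2S1 at chr19:41192969-41193218, both on the plus strand.
CYP26A1: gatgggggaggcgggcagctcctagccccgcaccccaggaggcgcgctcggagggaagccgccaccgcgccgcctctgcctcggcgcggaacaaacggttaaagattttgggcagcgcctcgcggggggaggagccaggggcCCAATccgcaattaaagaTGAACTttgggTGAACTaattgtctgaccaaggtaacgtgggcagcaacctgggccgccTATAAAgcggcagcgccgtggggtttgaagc
CYP26B1: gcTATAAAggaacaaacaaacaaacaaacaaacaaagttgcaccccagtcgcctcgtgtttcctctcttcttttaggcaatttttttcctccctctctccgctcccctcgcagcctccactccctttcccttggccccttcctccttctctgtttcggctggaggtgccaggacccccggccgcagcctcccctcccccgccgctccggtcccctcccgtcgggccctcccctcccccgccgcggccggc
CYP2B6: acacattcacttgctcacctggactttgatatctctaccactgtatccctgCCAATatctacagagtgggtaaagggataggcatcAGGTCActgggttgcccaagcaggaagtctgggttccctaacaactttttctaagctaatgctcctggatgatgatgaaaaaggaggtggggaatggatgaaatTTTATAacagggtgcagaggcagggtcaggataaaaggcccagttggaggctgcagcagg
CYP2S1: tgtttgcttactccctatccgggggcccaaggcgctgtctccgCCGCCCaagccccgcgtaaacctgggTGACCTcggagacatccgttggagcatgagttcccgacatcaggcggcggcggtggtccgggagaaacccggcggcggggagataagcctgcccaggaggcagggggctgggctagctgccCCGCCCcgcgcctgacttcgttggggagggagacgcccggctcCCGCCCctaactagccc

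In the CYP26A1 window, the reverse complement of AGTTCA stood from −90 and from −79 relative to the start, with CCAAT from −108 and TATAAA from −31. The 250 bases before the first start of CYP26A1 held none of the 6 motifs. The CYP26B1 window held TATAAA alone, from −248. CYP2B6 held CCAAT from −199, AGGTCA from −164 and a reversed TATAAA from −60. CYP2S1 held 3 copies of the GC box on the minus strand and a reversed AGGTCA from −181, with no GCGTG in this window. Over all 35116 promoters of the table, 10.7% held TATAAA, 32.0% the CCAAT box, 42.6% the GC box, 32.2% the dioxin receptor core, 12.1% AGGTCA and 8.80% its variant AGTTCA. Among 50 entries of the 37 members that matched, these shares were 30%, 42.0%, 36.0%, 20%, 26.0% and 12%. A match is a description of the letters and not a measured binding site.

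P450 genes of sterols and bile acids held the 2 most abundant members and showed both directions. Of 7 members, 4 were tested, with 1 called higher and 2 lower. This was 75.0% of those tested, beside 53.6% of all genes tested. CYP51A1, the lanosterol demethylase of cholesterol synthesis, lies on chromosome 7 from 91741463 to 91764059. It had 13589, 13122 and 12209 reads in control and 15792, 13635 and 14642 in PELP1-KD, and did not overlap after normalization. It rose by 0.35 on the log2 scale (SE 0.04, adjusted p = 3.60e-07), to 127% of control. Its values were not whole in any of the 6 libraries, so part of its reads were shared with other places in the genome. CYP27A1, the mitochondrial sterol 27-hydroxylase that opens the acidic route to bile acids, lies on chromosome 2 from 219646472 to 219680016. It had 2298, 2269 and 2346 reads and 2128, 1955 and 2357, which overlapped (log2 fold change 0.06, 95% interval −0.03 to 0.16, adjusted p = 0.237).

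CYP7B1, the oxysterol 7α-hydroxylase of the acidic route, was lower. It had 42, 46 and 61 reads in control and 11, 12 and 19 in PELP1-KD, without overlap, and fell to 31.4% of control (log2 fold change −1.65, SE 0.28, adjusted p = 4.29e-05). CYP39A1, another oxysterol 7α-hydroxylase, had 208, 150 and 155 reads and 113, 122 and 113, a log2 fold change of −0.39 (SE 0.13, adjusted p = 0.0212). That call was lost at −0.24 without control replicate 1 (adjusted p = 0.173), at −0.34 and −0.32 without PELP1-KD replicate 1 or 3 (0.0631, and 0.05 after rounding, just above the threshold), and by DESeq2 (−0.39, adjusted p = 0.0637). CYP7A1, the rate-limiting enzyme of the classical route, had 1, 1 and 2 reads in control and 0 in each PELP1-KD library. CYP8B1, which sets the share of cholic acid, had 3 reads in control replicate 3 and 0 elsewhere, and CYP46A1 had 1 read in each group. At this depth no change was detectable for these 3 genes.

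Other bile acid enzymes and the receptor circuit around them were also measured. Of 13 bile acid enzymes outside the P450 family, 11 were tested, with 3 called higher and 3 lower and a median of −0.03. The share called, 54.5%, was near the 53.6% of all genes, and 9.09% had a 2-fold change, beside 7.65%. AKR1D1 and ACOX2, which reduce the sterol ring and shorten the side chain, were higher (log2 fold changes 0.47 and 0.76, adjusted p = 5.30e-07 and 8.22e-07). SLC27A5, which activates bile acids for conjugation, had 21, 30 and 28 reads in control and 11, 10 and 11 in PELP1-KD (−1.13, SE 0.31, adjusted p = 0.00499). NR0B2 (SHP), the repressor that bile acids induce through the receptor NR1H4 (FXR), had 412, 412 and 447 reads and 77, 66 and 99 (−2.23, SE 0.11, adjusted p = 1.10e-12). NR1H4 itself fell to 89.0% of control (−0.17, adjusted p = 0.00201).

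The fatty acid and eicosanoid P450 genes had 12 members, of which 5 were tested, with 3 called higher and 1 lower. This was 80.0% of those tested, beside 53.6% of all genes tested. CYP4F12, a fatty acid hydroxylase in the CYP4F cluster on chromosome 19 (15783828 to 15807984), had 623, 610 and 637 reads in control and 905, 757 and 921 in PELP1-KD. It rose by 0.63 on the log2 scale (SE 0.06, adjusted p = 1.97e-08), without overlap. CYP4F3, the leukotriene B4 hydroxylase 12257 bases away from it, had 532, 520 and 492 reads and 573, 483 and 627, and after normalization every PELP1-KD value lay above control (0.29, SE 0.07, adjusted p = 0.00132). CYP2J2, an arachidonic acid epoxygenase on chromosome 1 (60358980 to 60392423), had 381, 369 and 390 reads and 433, 401 and 476 (0.37, SE 0.07, adjusted p = 0.000258).

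CYP4V2, a fatty acid hydroxylase mutated in Bietti crystalline dystrophy, had 213, 204 and 207 reads and 136, 156 and 155 (−0.31, SE 0.11, adjusted p = 0.0230). Without control replicate 1, 2 or 3 the log2 fold change stayed at −0.31, −0.31 and −0.30 while the adjusted p rose above 0.05 (0.0523, 0.0540 and 0.0554). Without PELP1-KD replicate 1 it was −0.22 (adjusted p = 0.117), and DESeq2 gave −0.31 (adjusted p = 0.0823). CYP2U1, a fatty acid hydroxylase, had 115, 98 and 77 reads and 92, 55 and 64, which overlapped (−0.29, adjusted p = 0.182). Without PELP1-KD replicate 1 it was called lower (−0.51, adjusted p = 0.0302). PTGIS, the prostacyclin synthase and a P450 under another name, was higher, with 245, 279 and 267 reads in control and 740, 663 and 839 in PELP1-KD (1.67, SE 0.08, adjusted p = 5.85e-13). TBXAS1, the thromboxane synthase, had 34, 17 and 28 reads and 10, 3 and 23 (−0.97, adjusted p = 0.0568). With the replicate number as a block its adjusted p was 0.0149, without control replicate 2 it was 0.0314 and without PELP1-KD replicate 3 0.000834.

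Of the 6 steroid hormone P450 genes, 2 were tested. CYP11A1, the mitochondrial side-chain cleavage enzyme that starts steroid synthesis, lies on chromosome 15 from 74630103 to 74660081. It had 192, 153 and 175 reads in control and 295, 272 and 248 in PELP1-KD, without overlap, a log2 fold change of 0.82 (SE 0.11, adjusted p = 2.89e-06). CYP19A1, the aromatase that makes oestrogens, had 19, 20 and 12 reads and 30, 15 and 22 (0.55, interval −0.10 to 1.21, adjusted p = 0.147). The adrenal enzymes CYP11B1 and CYP11B2 had 0 reads in all libraries, and CYP17A1 had at most 3 in a library. CYP21A2 had at most 1 read, and 13132 of its 19665 exon bases, annotated on 6 sequences of hg19, are shared with CYP21A1P.

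The 25 members below the filter were CYP2A6, CYP2A7, CYP2A13, CYP2C8, CYP2C19, CYP2F1, CYP2W1, CYP3A4, CYP3A43, CYP4A11, CYP4A22, CYP4B1, CYP4F2, CYP4F8, CYP4F11, CYP4F22, CYP4X1, CYP4Z1, CYP7A1, CYP8B1, CYP11B1, CYP11B2, CYP17A1, CYP21A2 and CYP46A1. Of these, 6 had no read in any library (CYP2F1, CYP4A11, CYP4A22, CYP4Z1, CYP11B1 and CYP11B2), 9 had between 1 and 10 reads over all libraries, and 10 had more. CYP4F22, a fatty acid hydroxylase of the skin barrier, had 3, 13 and 9 reads in control and 0 in each PELP1-KD library. Set against a floor of 3 reads over the PELP1-KD group, it was 7.42-fold lower. This is a bound and not an estimate, and it has no interval for the spread of the control reads. Without the filter CYP4F22 was called lower by edgeR (log2 fold change −6.00, adjusted p = 7.54e-05), and likewise by DESeq2 (−5.35, adjusted p = 0.00116).

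For the other scarce members a ratio of PELP1-KD to control could be given with an exact binomial interval, which covers counting error only. It was 2.37 (1.02 to 5.95) for CYP2A6, which oxidizes nicotine, on 9 and 19 reads, and 3.14 (1.07 to 11.2) for CYP2C19 on 5 and 14 reads. Neither was called by edgeR without the filter (adjusted p = 0.164 and 0.130). The ratio was 0.935 (0.490 to 1.77) for CYP2C8, 0.873 (0.402 to 1.86) for CYP2W1, 0.631 (0.246 to 1.52) for CYP4F11, 2.81 (0.809 to 12.3) for CYP3A4, 1.12 (0.336 to 3.75) for CYP4F2, 0.982 (0.303 to 3.10) for CYP2A7 and 1.31 (0.377 to 4.72) for CYP3A43. CYP4B1, CYP4F8 and CYP2A13 had 1 read in all, and CYP4X1 had 2. The highest count in a library was 13 reads for CYP2C8, 11 for CYP2A6, 8 for CYP2W1, 7 for CYP4F11, 6 for CYP2C19 and CYP3A4, and 4 for CYP4F2 and CYP2A7.

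P450 enzymes depend on electron carriers and on haem. Of 11 redox partner and haem genes, all were tested, with 3 called higher and 4 lower, and a median of −0.03. The share called was 63.6%, beside 53.6% of all genes, and 0 had a 2-fold change, beside 7.65%. POR had 6282, 6000 and 6161 reads in control and 5348, 4835 and 6015 in PELP1-KD (log2 fold change −0.02, SE 0.04, adjusted p = 0.661), and CYB5A, an electron carrier to some P450 enzymes, had −0.03 (adjusted p = 0.548). Of the mitochondrial partners, FDX1 was lower by −0.18 (SE 0.07, adjusted p = 0.0312) and FDXR by −0.26 (SE 0.09, adjusted p = 0.0236). FDX1L, of the same list, was not called (−0.03, adjusted p = 0.737). HMOX1, the haem oxygenase, and ALAS1, the first enzyme of haem synthesis, were higher, with 0.67 and 0.24.

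Of 23 regulators of P450 genes, 22 were tested, with 5 called higher, 5 lower and 12 not called, and a median of 0.03. The share called was 45.5%, beside 53.6% of all genes, and the share with a 2-fold change 4.55%, beside 7.65%. NR1I2 (PXR), which senses foreign compounds and acts on CYP3A and CYP2B genes, had 34, 21 and 39 reads in control and 36, 41 and 42 in PELP1-KD (log2 fold change 0.51, adjusted p = 0.0873). NR1I3 (CAR), the other such receptor, had 1, 1 and 0 reads and 0 in each PELP1-KD library. HNF4A, which drives hepatocyte genes, was higher (0.23, SE 0.04, adjusted p = 1.37e-05). RXRA, the shared partner of NR1I2 and NR1I3, was lower (−0.38, adjusted p = 1.13e-07). NR0B2 was the only gene of the list with a 2-fold change at an adjusted p below 0.05.

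**Figure D4:**
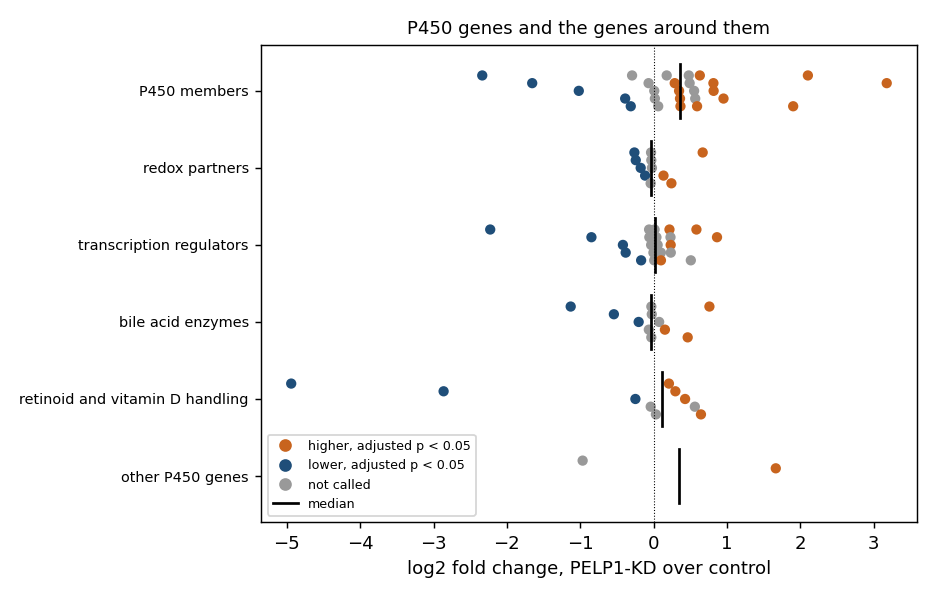
Log2 fold change of each tested gene, for the P450 members and 5 lists of genes around them, coloured by call at an adjusted p of 0.05, with a bar at each list's median. The median is 0.36 for the members (0.171 without the filter) and −0.03, 0.03, −0.03 and 0.12 for redox partners, regulators, bile acid enzymes and vitamin handling, with single genes (NR0B2, STRA6 and GC) far to the left.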

How the data were processed

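RNA-seq of Hep3B cells was analysed in 3 control and 3 PELP1-KD libraries, grouped by their labels. By the paper's methods reads were mapped to hg19 with TopHat2 and counted with HTSeq, while the deposited tables name featureCounts v1.5.0-p1 in their header, and the submitters' processing notes name HISAT2. The labels also conflict on mRNA selection or ribosomal RNA removal. The authors deposited estimated counts per gene, by strand, without normalization. Reads matching several places or genes (minimum mapping quality 2) were shared as fractions. Members with near-identical copies (CYP2A, CYP2C, CYP2D, CYP3A, CYP4A, CYP4F, CYP11B, CYP21A) are less certain. CYP2B6 was not counted among these and stays in the alternative that leaves them out. Its subfamily also has a pseudogene row, CYP2B7P1, with 17, 15 and 16 reads in control and 18, 28 and 26 in PELP1-KD. Non-whole values occurred for 7 members, namely CYP51A1 (in 6 libraries), CYP4F12, CYP2B6, CYP26B1, CYP20A1, CYP2D6 and CYP21A2. None of the CYP2A, CYP2C, CYP3A, CYP4A and CYP11B members had such a value.

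The counts were rounded and fitted over all genes with edgeR 4.0.16 (filterByExpr, TMM, glmQLFit with robust estimation, glmQLFTest, R 4.3.3), with thresholds of 0.05 on the adjusted p and 1 on the absolute log2 fold change. The median standard error of a log2 fold change was 0.063. Intervals use the fit's degrees of freedom. Normalized reads are reads over the relative TMM-scaled library size. Members and lists were chosen with earlier results of these data known. By the rule for names, every tested member but 1, which is not reported here, is given with its values, with reads per library for those changed 2-fold or among the 8 highest by RPKM, and untested members with their highest count. Of the other lists it names the 2-fold changed genes and POR, CYB5A, FDX1, FDXR, NR1I2, NR1I3, HNF4A, NR1H4 and NR0B2. VDR, ALDH1A1, AKR1D1, ACOX2, HMOX1, ALAS1, RXRA, TBXAS1, the RAR genes and the named cell type markers were added after their values were seen. Promoters come from RefSeq (GRCh38.p14).

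Alternatives were DESeq2's size factors, upper-quartile normalization, no filter, at least 10 reads in every library, DESeq2 1.42.0, an adjusted p below 0.01, glmTreat, rounding down, leaving out near-identical families, the replicate block, and each library left out. Same-numbered control and PELP1-KD libraries deviated together (correlations 0.336, 0.247 and 0.666 over 6370 genes with a log2 CPM above 5). Control replicate 2 with PELP1-KD replicate 1 gave 0.418, and control replicate 1 with PELP1-KD replicate 2 gave 0.244. Control replicate 3 gave −0.569 and −0.372 with PELP1-KD replicates 1 and 2, and PELP1-KD replicate 3 gave −0.406 and −0.475 with control replicates 1 and 2. The libraries numbered 3 thus deviated together and against the others. Those numbered 1 and 2 correlated across numbers about as well as within them, so these values do not show which of them were pairs. Over all genes tested, 8828 were called with the replicate block and 7788 without it. The replicate block, which takes the labels' numbers as pairs, was an alternative only, and the main fit used no pairs. Replicates differed by more than sampling noise (chi-square per degree of freedom 1.94 to 7.02). The fit was tested on simulated data.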

Additional observations from a re-analysis of the deposited data

How the results depend on the processing

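The 6 members called at 2-fold kept their direction and an adjusted p below 0.05 against no change in each edgeR or DESeq2 fit in which they were tested, but CYP26B1 fell short of 2-fold (−0.99) without PELP1-KD replicate 1, where 2 members were 2-fold lower. CYP24A1 is left out where every library needs at least 10 reads. Of 377 pairs of a tested member and an alternative, 340 kept direction and side of the threshold, 26 lost a call, 3 gained one and 8 changed sign. The count of called members, 17, was 17 with the replicate block, which changed no member's call, and 13 with DESeq2, which lost CYP26C1, CYP27B1, CYP2D6, CYP4V2 and CYP39A1 and gained CYP4F22. With each library left out it lay between 13 and 16, that of higher members between 9 and 11 and that of lower members between 3 and 5. At an adjusted p below 0.01, 12 members were called, 3 of them lower. Against a 2-fold change, the stricter glmTreat called 3 members, and 0 of them lower. The members' median fell to 0.171 both without a filter and with DESeq2, where more scarce members enter. With the replicate block PELP1 passed the threshold (−0.083, adjusted p = 0.0106). It lay between −0.105 and −0.040 with libraries left out, with an adjusted p of 0.018 without PELP1-KD replicate 3. Without both libraries numbered 3, whose deviations ran against those of the others, 14 members were called and PELP1 gave −0.0871 (adjusted p = 0.0244). This setting was chosen after seeing the data. The count of called redox partner genes lay between 4 and 7 with libraries left out. Of the P450 genes TBXAS1 and PTGIS, 2 instead of 1 were called without a filter and with the block, and 1 to 2 with libraries left out. Members near 0 changed sign with single libraries left out, namely CYP2C18 (−0.040 without control replicate 1, −0.099 without control replicate 2, −0.049 without PELP1-KD replicate 1 and −0.030 without PELP1-KD replicate 3, and up to 0.188 otherwise), CYP20A1 (−0.011 without control replicate 2 and −0.0065 without PELP1-KD replicate 1, up to 0.047 otherwise) and CYP3A7 (0.211 and 0.126 without the same 2, down to −0.304 otherwise). Members with under 30 reads in a library have standard errors from 0.23 to 0.50, which limits what could be called.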
